A study of Mus musculus with 8 samples.

Results

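The effect of a heart gene deletion on messenger RNA levels was compared between 4 and 10 weeks of age, and each gene whose effect differed was asked which genotype had moved, knock-out (KO) or wild type (WT). All 8 of the 8 arrays of the series entered, 1 array per heart. For each of 18193 genes the KO minus WT difference at 4 weeks was subtracted from the KO minus WT difference at 10 weeks. This change of the KO effect equals the change with age in KO hearts minus the change with age in WT hearts, so a gene can be called because KO moved, because WT moved, or because both did. In limma with Benjamini-Hochberg adjustment over all genes, 379 genes had an adjusted p under 0.05 and are described as called, 2.08% of those tested. Of these 321 were led by KO, 6 by WT and 36 by movements in opposite directions, and 16 were not resolved.

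The mice were females in which 1 gene was conditionally deleted by the MCK driver, that of muscle creatine kinase, and their WT littermates. There were 2 WT and 2 KO mice of 4 weeks and 2 WT and 2 KO mice of 10 weeks, each heart from a separate tagged mouse. The MCK promoter is active in the fibres of heart and skeletal muscle, and Cre under it is not active in the other cells of the heart. The series' design text calls the 4 mice of an age littermates, so age and litter cannot be told apart in a change with age or in a change of the KO effect.

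The mouse heart is still growing at weaning. In the weeks after it the ventricle reaches its adult size, and synthesis of fibrillar collagen and elastin, which build the scaffold around the muscle cells, declines. Adult ventricular muscle relies on fatty acid oxidation and a dense respiratory chain, and a heart under strain tends to lower these genes and to raise fetal contractile genes and matrix genes.

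Levels are log2 intensities of RMA-processed probe sets, and replicate 1 of a group is given before replicate 2. The 10 defining ventricular markers other than Irx4 and Hey2 read log2 8.31 (Nkx2-5) or more on each array, and Irx4 and Hey2, transcription factors of the ventricle, read 6.18 to 6.65 and 4.25 to 5.27. The linear sum over all 12 markers lay between 103384 and 127672 on the 8 arrays. Precision is limited by 2 arrays per group: the median SE was 0.205 for a change of the KO effect and 0.145 for a change with age. 3 arrays stood apart. Replicate 1 of the 10-week WT hearts carried liver and kidney markers, with Alb, serum albumin, at 10.94 against 7.78 on replicate 2 and Kap, a kidney protein, at 9.73 against 7.29. The median difference within that pair was 0.201 with 212 genes differing by over 1, against medians of 0.106 to 0.146 and 24 to 81 genes in the other pairs. Replicate 2 of the 4-week KO hearts had a summed atrial marker level of 35129 against 16803 on replicate 1, and Alb at 11.05 against 6.31. Alb was also high on replicate 2 of the 4-week WT hearts, at 10.57 against 8.96. Replicate 1 of the 10-week KO hearts carried S100a8 and S100a9, calcium-binding proteins of neutrophils, at 10.94 and 10.43 against 5.71 and 4.96 on replicate 2, and the airway gene Scgb1a1 at 9.77 against 4.25.

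With all 8 arrays, most genes with a changed KO effect were KO-led. Without 10-week WT replicate 2 this was 566 of 1600, with 501 WT-led and 457 opposed, and 3035 genes were called for a change with age in KO and 2946 in WT. With all arrays the effect was higher at 10 than at 4 weeks for 160 genes, 0.879% of those tested, and lower for 219, 1.2%. Between 4 and 10 weeks 622 genes rose (3.42%) and 1286 fell (7.07%) in KO hearts, 10.5% of genes together, while 9 rose (0.0495%) and 12 fell (0.066%) in WT hearts, 0.115% together. By limma's unadjusted p under 0.05 the change with age counted 3285 genes in WT and 4594 in KO, so the low WT count does not show that WT hearts stayed the same. Over the 379 called genes the median size of the change with age was 1.19 in KO and 0.21 in WT, and the median size of the change of the KO effect was 1.29. The smallest was 0.76, 319 reached 2-fold and 48 reached 4-fold. Over all 18193 genes the median change of the KO effect was -0.02. The calls used the same differences that the division into KO-led and WT-led genes uses, so the division is a description and has no test of its own.

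KO-led means that the change with age in KO was called and was at least 2 times the size of the change in WT. WT-led is the reverse. Each change had to pass the adjusted threshold of its own genotype, and the smallest change with age that was called was 0.41 in KO and 0.88 in WT. A WT change thus had to be larger to count as leading. Of the 321 KO-led genes, 84.7% of those called, 120 had a higher and 201 a lower effect at 10 weeks. Of the 6 WT-led genes, 1.58%, 3 had a higher and 3 a lower effect. In the 36 opposed genes, 9.50%, neither rule held, the changes in KO and WT had opposite signs and at least 1 of them was called, and in 29 of these the KO change was positive and the WT change negative.

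**Figure D1:**
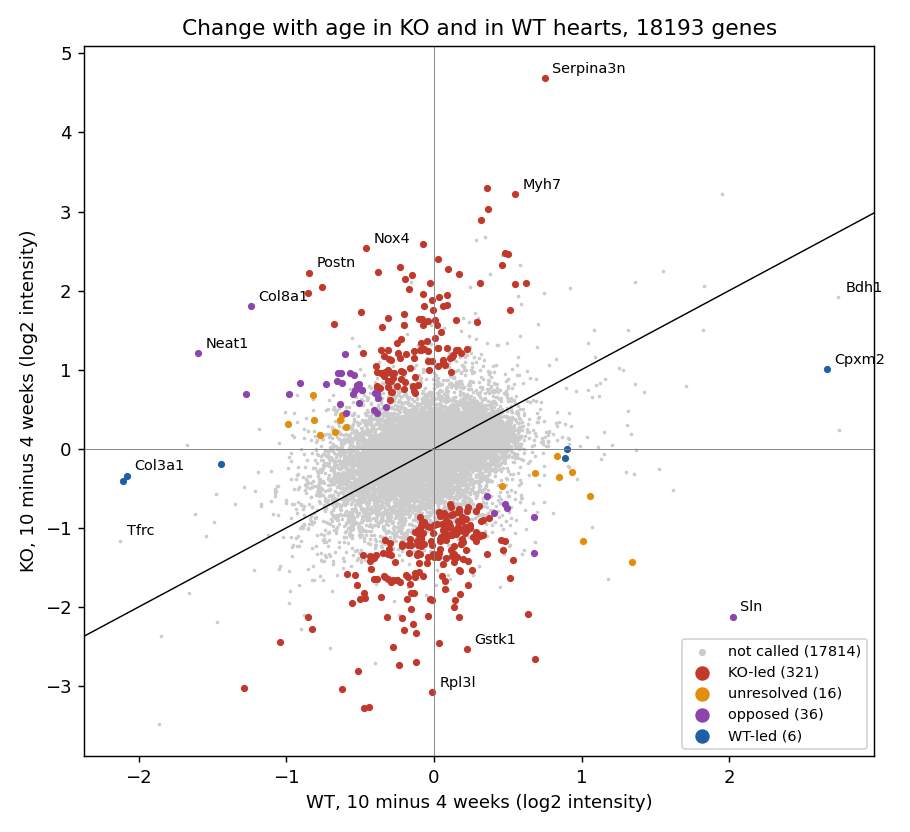
Change with age in KO hearts (vertical axis, log2 intensity, 10 minus 4 weeks) against that in WT hearts (horizontal axis, same unit) for 18193 genes, 1 point per gene, with the line of equal change and the called genes coloured by division. The 321 KO-led genes lie above and below the middle of the plot, the 6 WT-led genes lie at its left and right sides near the horizontal line, and the 36 opposed genes lie mainly at the upper left.

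Of the KO-led genes with a lower effect at 10 weeks, Rpl3l, a ribosomal protein of striated muscle, read 10.59 and 10.53 in 4-week WT, 10.34 and 10.30 in 4-week KO, 10.75 and 10.34 in 10-week WT, and 7.17 and 7.30 in 10-week KO. The 6 other hearts lay close together, and both 10-week KO hearts lay far below them. The KO effect changed by -3.07 ± 0.21 (SE), 8.39-fold (adjusted p = 0.000814). Rpl3l fell by 3.08 in KO, and its change in WT was -0.01 with a 95% interval of -0.35 to 0.32.

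Gstk1, a glutathione transferase of mitochondria and peroxisomes, read 10.01 and 9.80 in 4-week WT, 9.57 and 9.89 in 4-week KO, 10.28 and 9.97 in 10-week WT, and 7.02 and 7.36 in 10-week KO. The KO hearts of 4 weeks overlapped the WT range, and those of 10 weeks did not. Its effect changed by -2.76 ± 0.25 (adjusted p = 0.00154). Ces1d, a carboxylesterase that splits lipid esters, read 9.23 and 9.28, then 8.77 and 9.05, then 10.03 and 9.76, and then 6.68 and 6.96 in the same order of groups. Here WT lay higher at 10 weeks (change 0.64, interval 0.28 to 0.99, not called) while KO fell by 2.09, and the effect changed by -2.73 ± 0.22. Its 2 other probe sets gave -3.44 and -2.66.

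Yipf7, of a family of Golgi membrane proteins, changed by -2.49 ± 0.19, the leucine-rich repeat protein Lrtm1 by -2.83 ± 0.28, and Cmss1 by -2.57 ± 0.29. The other probe sets of Cmss1 gave -0.07 and -0.05, so its value belongs to 1 of 3 probe sets. Gpr22, a receptor of heart muscle without a known ligand, read 4.93 and 4.57 in 10-week KO against 7.63 to 8.66 in the 6 other hearts, and its effect changed by -2.81 ± 0.34. Without 4-week WT replicate 2 it was no longer called. Ift81, of transport along cilia, had the lowest value of the KO-led genes at -3.34 ± 0.48, with 10-week KO at 6.25 and 6.90 and the other hearts at 9.13 to 10.85. Its other probe sets gave -2.75 and -0.08, and its call was lost in 4 of the 8 fits that leave out 1 array, those without 4-week WT replicate 1, either 4-week KO array or 10-week KO replicate 1.

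Among the rises, Serpina3n, an acute-phase protease inhibitor, read 6.53 and 6.48 in 4-week WT, 6.51 and 6.76 in 4-week KO, 7.33 and 7.18 in 10-week WT, and 11.91 and 10.73 in 10-week KO. At 4 weeks the genotypes overlapped, and at 10 weeks both KO hearts lay above the rest and apart from each other. The KO effect changed by 3.93 ± 0.43, 15.3-fold (adjusted p = 0.00335), and by 3.34 without replicate 1 of the 10-week KO hearts. Timp1, an inhibitor of matrix metalloproteinases, had the same order of its KO hearts, 11.46 and 10.15, against 6.65 to 7.66 in the others. Its effect changed by 2.94 ± 0.47 (adjusted p = 0.0206), by 2.29 without 10-week KO replicate 1 (0.00865), and it was not called without any 1 of the 4-week arrays (0.0792 to 0.131).

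Myh7, the myosin heavy chain of the fetal mouse ventricle, read 7.65 and 7.58 in 4-week WT, 8.03 and 7.98 in 4-week KO, 8.11 and 8.23 in 10-week WT, and 11.15 and 11.31 in 10-week KO. Each pair was tight, and only the 10-week KO pair lay above the narrow range of the rest. KO rose by 3.22, WT differed by 0.55 (interval 0.28 to 0.83, not called), and the effect changed by 2.67 ± 0.17 (adjusted p = 0.000814). Nox4, an oxidase that makes hydrogen peroxide, read 4.72 and 4.77, then 4.23 and 4.67, then 4.31 and 4.26, and then 6.90 and 7.07 in the same order of groups. Its effect changed by 3.0 ± 0.22, with a dimmer probe set at 1.32.

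Lcn2, a lipocalin that binds iron-carrying siderophores and is also made by neutrophils, read 9.34 and 9.22 in 10-week KO against 6.07 to 6.81 in the 6 other hearts. S100a8 and S100a9 were high on replicate 1 of these and not on replicate 2. The change of the effect was 2.66 ± 0.21 with all arrays and 2.60 without replicate 1, and the part of neutrophils in it was not tested. Fam122b changed by 2.81 ± 0.23. Ccn2, a matrix-linked growth factor, changed by 2.57 ± 0.20 and Ccn5, of the same family, by 2.66 ± 0.27.

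**Figure D2:**
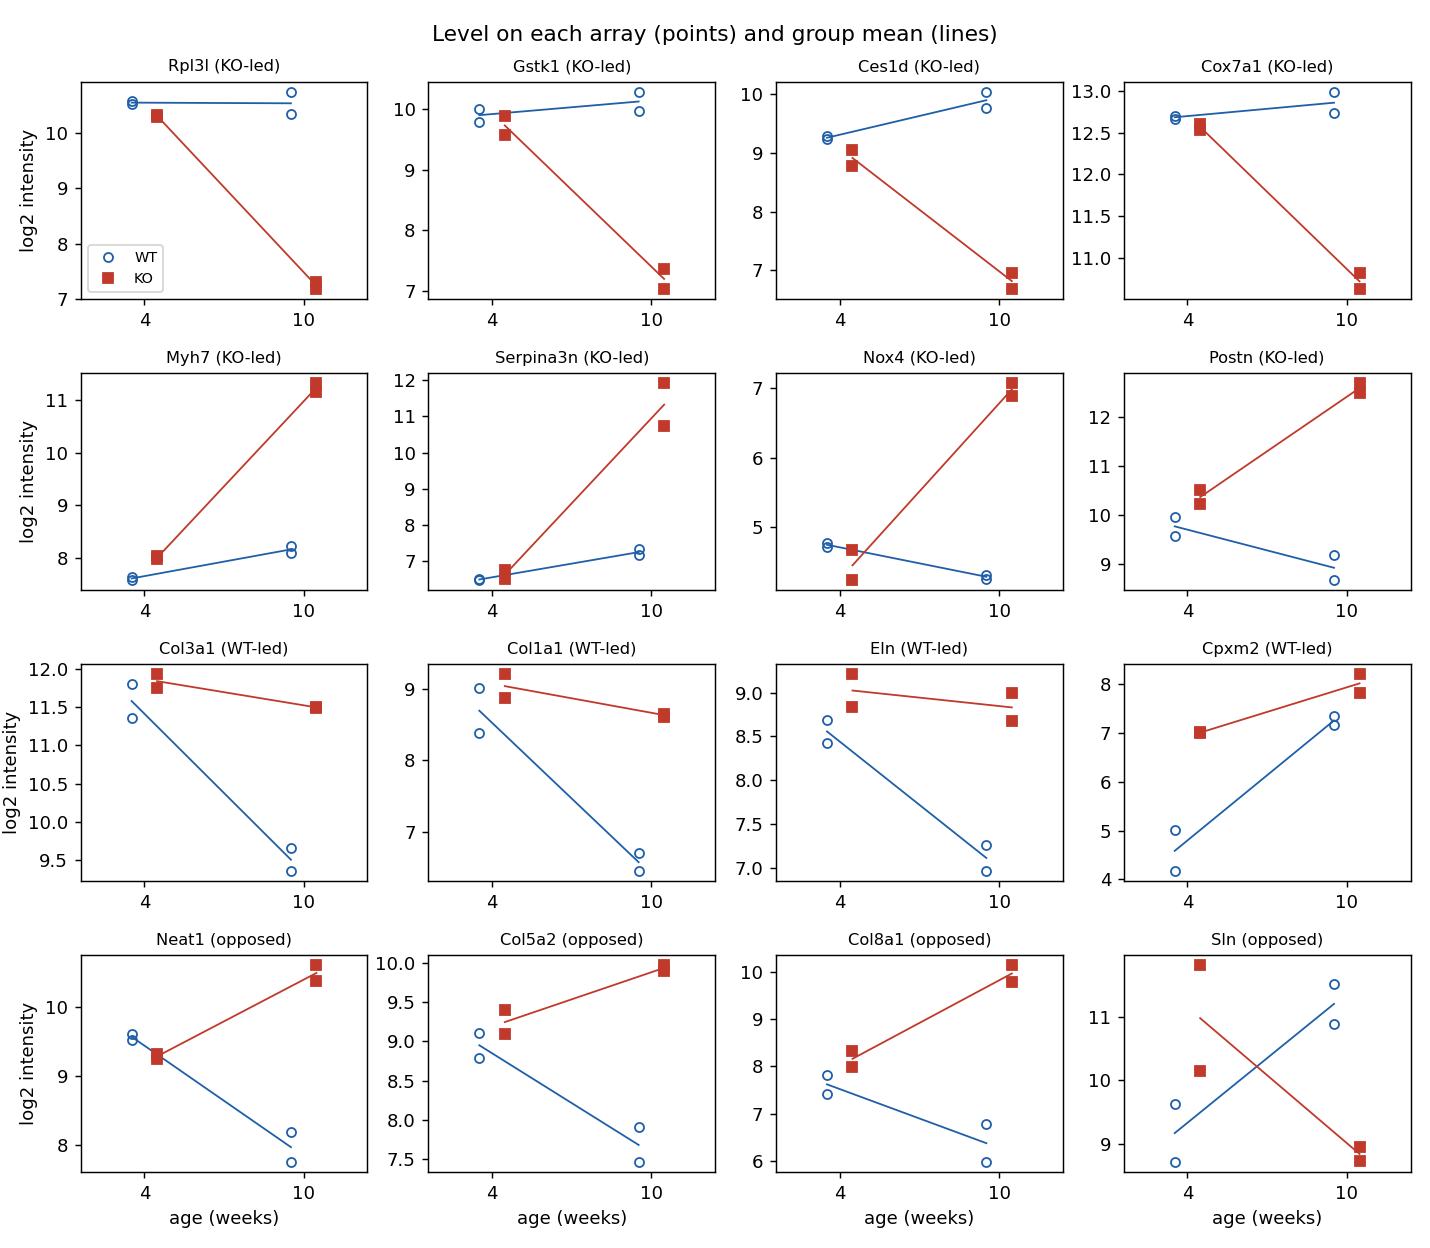
Log2 intensity (vertical axes) of 16 genes on each of the 8 arrays at 4 and 10 weeks (horizontal axes), with open circles for WT, filled squares for KO and lines joining group means. In the upper 2 rows only the KO line is steep (Rpl3l from 10.34 and 10.30 to 7.17 and 7.30), in the third row the WT line is the steeper, and in the lowest row the lines run in opposite directions.

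WT-led genes were few, and the 3 with a higher effect at 10 weeks were all structural matrix genes. Col3a1, the chain of collagen III, read 11.35 and 11.81 in 4-week WT, 11.75 and 11.93 in 4-week KO, 9.35 and 9.66 in 10-week WT, and 11.50 and 11.49 in 10-week KO. Only the 10-week WT hearts lay apart, below the rest. WT fell by 2.08 (adjusted p = 0.00347), the change in KO was -0.34 with an interval of -0.73 to 0.05, and the effect changed by 1.73 ± 0.25 (adjusted p = 0.0123). A second probe set gave 2.84.

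Col1a1, of collagen I, read 8.38 and 9.0 in 4-week WT, 8.87 and 9.20 in 4-week KO, 6.45 and 6.71 in 10-week WT, and 8.65 and 8.61 in 10-week KO. The order was that of Col3a1, with the 10-week WT pair below all others. WT fell by 2.11, KO differed by -0.40 (interval -0.87 to 0.06), and the effect changed by 1.71 ± 0.29 (adjusted p = 0.0236), with a second probe set at 0.65. Eln, elastin, fell by 1.45 in WT and differed by -0.19 in KO (interval -0.60 to 0.22), and its effect changed by 1.25 ± 0.26 (adjusted p = 0.0467). For these 3 genes the intervals in KO reach -0.60 or below, so some fall in KO hearts is within their error.

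The 3 WT-led genes with a lower effect at 10 weeks did not share a known role. Cpxm2, related to the carboxypeptidases and secreted, read 4.17 and 5.0 in 4-week WT, 7.01 and 7.0 in 4-week KO, 7.33 and 7.16 in 10-week WT, and 7.82 and 8.19 in 10-week KO. It was low in 4-week WT alone: WT rose by 2.66 and KO by 1.01, so the genotypes were closer at 10 weeks and the effect changed by -1.66 ± 0.34 (adjusted p = 0.0467). A second, dimmer probe set gave 0.27. Nkain4, a partner of the sodium pump, rose by 0.88 in WT, differed by -0.11 in KO (interval -0.38 to 0.16) and changed in effect by -1.0 ± 0.17. Slc26a3, an anion exchanger, rose by 0.90 in WT, differed by -0.00 in KO (interval -0.26 to 0.26) and changed in effect by -0.90 ± 0.17, with 3 other probe sets at -0.43, -0.32 and 0.07.

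The calls of all 6 depended on single arrays. Col3a1 was not called in 4 of the 8 fits that leave out 1 array (values 1.51 to 1.96), Col1a1 in 5, Eln in 7, and Cpxm2, Nkain4 and Slc26a3 in 6 each. Without 10-week WT replicate 1, the array with liver and kidney markers, Col3a1 gave 1.58 (adjusted p = 0.0139), Col1a1 1.58 (0.0312), Eln 1.1 (0.065), Cpxm2 -1.57 (0.0633), Nkain4 -0.98 (0.0289) and Slc26a3 -0.85 (0.0423). The direction was the same in every one of these fits.

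In opposed genes the changes of WT and KO with age had opposite signs. Neat1, the noncoding RNA that scaffolds nuclear paraspeckles, read 9.6 and 9.52 in 4-week WT, 9.31 and 9.24 in 4-week KO, 8.18 and 7.74 in 10-week WT, and 10.37 and 10.60 in 10-week KO. At 10 weeks WT lay below and KO above all hearts of 4 weeks. WT fell by 1.60 (adjusted p = 0.00678), KO rose by 1.21 (0.00208), and the effect changed by 2.81 ± 0.23. Another, weaker probe set of this RNA gave -0.34.

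Col5a2, a chain of collagen V, fell by 1.27 in WT, rose by 0.69 in KO and changed in effect by 1.97 ± 0.26. Neat1 and Col5a2 were called within both genotypes in opposite directions. Col8a1, of collagen VIII, read 7.42 and 7.82 in 4-week WT, 8.33 and 7.98 in 4-week KO, 5.97 and 6.78 in 10-week WT, and 9.78 and 10.13 in 10-week KO. KO rose by 1.80, WT differed by -1.24 (interval -1.83 to -0.65, not called), and the effect changed by 3.05 ± 0.37 and by 2.64 without 10-week WT replicate 1, with the other probe sets at 2.17 and 2.48. Hif1a, the oxygen-regulated subunit of hypoxia-inducible factor, changed by 1.80 ± 0.28, the axon guidance gene Dpysl3 by 1.74 ± 0.31, the cold-inducible RNA-binding protein Cirbp by 1.68 ± 0.23, the membrane linker Msn by 1.60 ± 0.34 and the proteoglycan Vcan by 1.59 ± 0.32, though 3 of its 7 other probe sets had the opposite sign.

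Sln, sarcolipin, a regulator of the sarcoplasmic calcium pump that marks the atrium, had the lowest value of all genes. It read 8.72 and 9.63 in 4-week WT, 10.14 and 11.80 in 4-week KO, 10.89 and 11.51 in 10-week WT, and 8.95 and 8.74 in 10-week KO. The pairs were wide, and 10-week KO overlapped 4-week WT. The effect changed by -4.15 ± 0.68 (adjusted p = 0.0211), by -3.32 without 4-week KO replicate 2, and the second probe set gave -0.45. It was not called without either 4-week WT or either 10-week KO array (0.0704 to 0.129). The summed level of the 12 atrial markers moved too, at 9767 and 13162 in 4-week WT, 16803 and 35129 in 4-week KO, 20635 and 30643 in 10-week WT, and 30943 and 29259 in 10-week KO. Over these 12, Sln among them, the median change of effect was -0.73, with 11 negative. Their median change with age was 1.03 in WT and -0.24 in KO. The part of atrial tissue in the value of Sln was not tested.

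Among the 39 measured genes of the extracellular matrix, 14 had a called change of effect, all higher at 10 weeks, with a median of 1.03 over the list against -0.02 over all genes. Of all genes 0.879% were called higher and 1.2% lower. Both genotypes contributed: the list's median change with age was 0.41 in KO, with 14 rising and 2 falling, and -0.51 in WT, with 4 falling and none rising. By division the 14 were 8 KO-led, 3 WT-led, 2 opposed and 1 not resolved, so matrix genes made up 3 of the 6 WT-led genes. In bulk tissue a change in the number of matrix-making cells and a change in RNA per cell cannot be told apart.

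Of the KO-led matrix genes, Postn, periostin, which activated fibroblasts secrete, read 9.58 and 9.98 in 4-week WT, 10.51 and 10.23 in 4-week KO, 8.67 and 9.19 in 10-week WT, and 12.50 and 12.70 in 10-week KO. KO lay above WT at both ages, with a gap that was wider at 10 weeks. The effect changed by 3.07 ± 0.29 (adjusted p = 0.00154), by 2.81 without 10-week WT replicate 1. Lox, the enzyme that cross-links collagen and elastin, read 8.43 and 7.61 in 10-week KO, 5.97 to 6.07 at 4 weeks and 5.06 and 5.2 in 10-week WT. Its effect changed by 2.82 ± 0.32, with other probe sets at 0.44 and 1.93.

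The cartilage matrix proteins Cilp and Comp changed by 2.62 ± 0.28 and 1.96 ± 0.34, Ltbp2, which binds to elastic fibres, by 1.86 ± 0.17, and the small proteoglycan Bgn by 1.69 ± 0.34. Thbs4, a thrombospondin, changed by 1.47 ± 0.23. These had a KO rise of 1.21 to 2.46. In these KO-led genes KO rose and no change in WT was called, in Col5a2 KO rose and WT fell, and in Col1a1, Col3a1 and Eln WT fell with a KO interval that spans 0.

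The fibroblast markers gave a median change of effect of 0.49, with 11 of 14 positive and 1 called, Fbln2, an opposed gene. The median change with age of the fibroblast markers was 0.05 in KO, with 3 rising and 1 falling, and -0.31 in WT, with none called. Their summed level was 19621 and 18608 in 10-week KO against 12076 to 17122 in the other hearts. The macrophage markers gave a median of 0.45, all 24 positive and 2 called, Cd68 (1.61 ± 0.26) and the mannose receptor Mrc1 (1.3 ± 0.21). Their summed level was 15594 and 12276 in 10-week KO against 6797 to 8489 in the others. The part of either cell type in the matrix values was not tested. Without 10-week WT replicate 1 the matrix list had 13 called genes and a median of 0.71, without 10-week KO replicate 1 it had 7 and 0.93, and without 4-week KO replicate 2 it had 5 and 1.20.

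**Figure D3:**
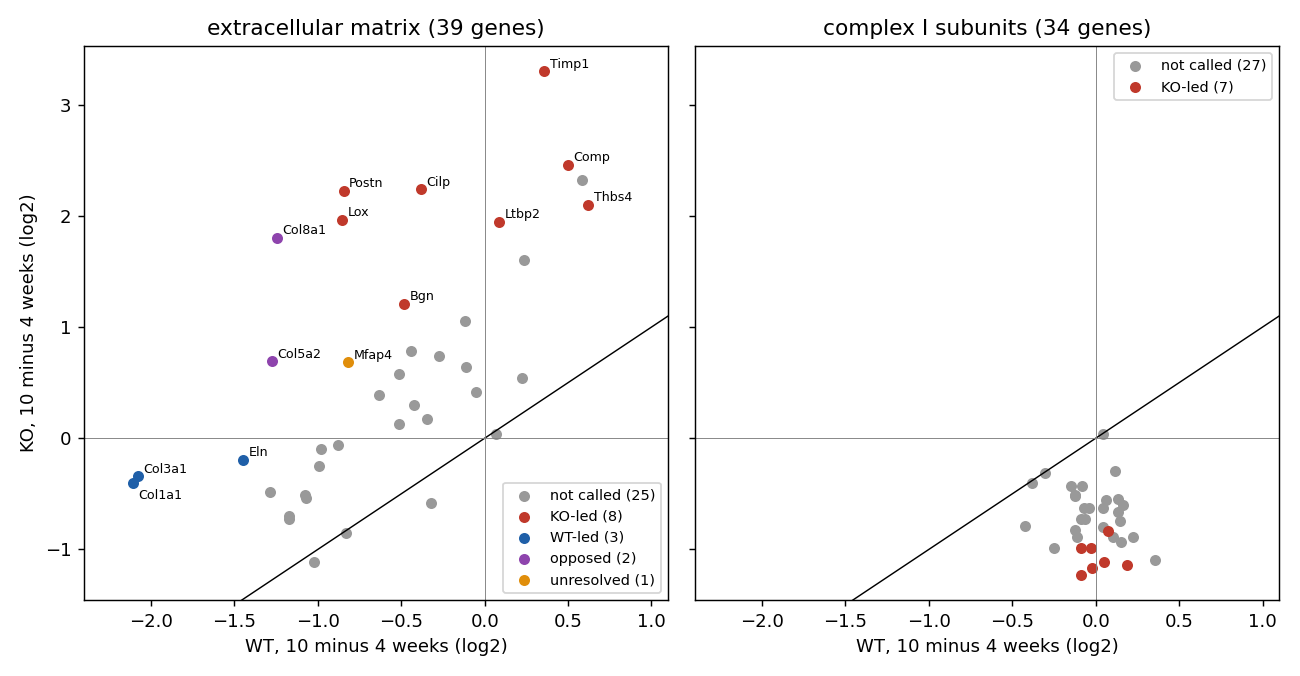
Change with age in KO (vertical axis, log2, 10 minus 4 weeks) against that in WT (horizontal axis, log2) for 39 matrix genes on the left and 34 complex I subunits on the right, 1 point per gene, with the line of equal change. Matrix genes spread along the WT axis from Col1a1 at -2.11 to positive values, and the complex I subunits gather around the vertical line, with medians of -0.03 in WT and -0.73 in KO.

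Of 34 measured subunits of complex I of the respiratory chain, which takes electrons from NADH, 7 had a called change of effect, all lower at 10 weeks and KO-led. The values of all 34, called or not, were negative, with a median of -0.72. Their median change with age was -0.73 in KO, with 28 falling, and -0.03 in WT, with none called. Over all genes 1.2% had a called lower effect and 7.07% fell in KO. Ndufa7 read 12.22 and 12.21 in 4-week WT, 12.09 and 12.35 in 4-week KO, 12.61 and 12.20 in 10-week WT, and 11.31 and 10.85 in 10-week KO. The 3 other groups overlapped and the 10-week KO pair lay below them, and the effect changed by -1.32 ± 0.27 (adjusted p = 0.0435). Ndufs4 and the iron-sulfur subunit Ndufs8 changed by -1.17 ± 0.20 and -1.14 ± 0.21, and Ndufa8 by -1.14 ± 0.19.

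The lists of the other complexes were shorter and had fewer calls, all lower, against 1.2% of all genes called lower. In complexes II and III the called subunits were 2 of 14, Uqcr11 (-1.40 ± 0.24) and Uqcrq (-1.16 ± 0.24), with a median of -0.47. The other 3 probe sets of Uqcrq gave -0.33, -0.17 and 0.11. Of 14 complex IV subunits 2 were called, the muscle isoforms Cox7a1 and Cox8b (-1.16 ± 0.22), with a median of -0.38. Cox7a1 read 12.67 and 12.70 in 4-week WT, 12.53 and 12.61 in 4-week KO, 12.98 and 12.73 in 10-week WT, and 10.63 and 10.82 in 10-week KO. Its effect changed by -2.02 ± 0.19, 4.05-fold (adjusted p = 0.00154), and it was called without any single array. Of 18 ATP synthase subunits Atp5e was called (-1.65 ± 0.34), with a list median of -0.54.

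Mitochondrial ribosomal proteins, which translate the subunits encoded in mitochondrial DNA, had 10 of 74 called lower and none higher, with a median of -0.68, made up of -0.69 in KO and -0.03 in WT. Mrpl41 and Mrps21 changed by -1.39 ± 0.26 and -1.38 ± 0.25, and the second probe set of Mrps21 gave 0.09. Cytosolic ribosomal proteins had none of 44 called (median -0.17), which is near the 2.08% called over all genes. For fatty acid uptake and oxidation, 6 of 27 genes were called, all lower and KO-led, with a median of -0.55. Acot13, a mitochondrial thioesterase, changed by -1.66 ± 0.22, Etfb, the electron transfer flavoprotein's beta chain, by -1.53 ± 0.19 and Cpt2, of acylcarnitine import, by -1.45 ± 0.24. The tricarboxylic acid cycle had 1 of 23 called, fumarase, Fh1 (-1.20 ± 0.21), against 1.2% of all genes called lower, and a median of -0.13. Both KO and WT had medians below 0 for the cycle, at -0.36 and -0.20.

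The number of calls in these lists depended on the array left out. Complex I had 1 called subunit without 10-week KO replicate 1, 0 without 4-week KO replicate 2, 6 without 10-week WT replicate 1 and 22 without 10-week WT replicate 2. Its median stayed between -0.82 and -0.61 over the 8 fits that leave out 1 array, and that of the mitochondrial ribosomal proteins between -0.81 and -0.53. The ventricular markers had none of 12 called and a median of 0.11, and their summed level in 10-week KO, 103384 and 112952, was next to that in 10-week WT, 105840 and 123874.

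Of 33 genes of the adult heart muscle cell 5 were called, all lower and KO-led: Rpl3l, Gpr22, Cox7a1, Cox8b and Kcnip2, a partner of potassium channels (-1.26 ± 0.26). The list median was -0.22, with -0.40 in KO and -0.29 in WT. Of all genes 0.879% were called higher and 1.2% lower. Of 33 ion channel and calcium handling genes 3 were called, all lower, being Sln, Kcnip2 and the potassium channel Kcna5 (-1.68 ± 0.27). Of 27 fetal heart muscle genes 2 were called, both higher, Myh7 and Ankrd1, a stretch-responsive protein of the sarcomere (1.99 ± 0.42), with a median of 0.25. These 2 and Fhl1 (1.88 ± 0.36) and Ccn2 made up the 4 called of 21 hypertrophy genes, where the median was 0.74.

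The natriuretic peptides did not follow Myh7. Nppb, which a loaded ventricle secretes, read 9.96 and 10.55 in 4-week WT, 12.30 and 12.15 in 4-week KO, 11.997 and 12.16 in 10-week WT, and 13.81 and 13.64 in 10-week KO. It rose with age in both genotypes, by 1.83 in WT and 1.499 in KO, and the KO hearts lay above the WT hearts at each age. The change of its KO effect was -0.33 ± 0.26 (adjusted p = 0.689). Nppa, the atrial peptide, had a change of -0.23, with 1.25 in WT and 1.02 in KO. At 4 weeks the summed atrial markers were 9767 and 13162 in WT and 16803 and 35129 in KO. At 10 weeks they were 20635 and 30643 in WT and 30943 and 29259 in KO. The part of atrial tissue in the values of Nppb and Nppa was not tested.

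In the amino acid and integrated stress response the factor ATF4 induces genes of amino acid synthesis, tRNA charging and stress regulation. Of 29 measured ATF4 and stress response genes 3 were called, all higher, with 25 of 29 positive and a median of 0.56. The median change with age was 0.63 in KO, with 13 rising and 1 falling, and -0.02 in WT. Over all genes 0.879% had a called higher effect and 3.42% rose in KO. The median KO minus WT difference was already 0.30 at 4 weeks and was 0.93 at 10 weeks. The 3 called were the stress genes Nupr1, Ppp1r15a and Eif4ebp1. In 2 related lists, Psat1 among 16 serine, one-carbon and proline synthesis genes and Gars among 19 tRNA synthetases were called higher.

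The promoters of Gars and Nupr1 are shown because they were the 2 of these 5 called genes with a match to the amino acid response element, the motif that ATF4 binds. They are from RefSeq (GRCm38.p6), read 5′ to 3′ on the gene's strand from upstream of the start site into the transcript, at chr6:55037751-55038050 on the plus strand and chr7:126625421-126625720 on the minus strand. Capitals mark a match to TGATGNAAN, searched on both strands.
Gars: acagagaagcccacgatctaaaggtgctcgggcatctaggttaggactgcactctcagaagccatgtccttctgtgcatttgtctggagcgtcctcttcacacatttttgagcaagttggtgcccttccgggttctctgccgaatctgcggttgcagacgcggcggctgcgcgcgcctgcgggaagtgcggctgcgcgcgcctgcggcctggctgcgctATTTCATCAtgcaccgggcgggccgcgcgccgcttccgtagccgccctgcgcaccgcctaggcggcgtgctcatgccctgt
Nupr1: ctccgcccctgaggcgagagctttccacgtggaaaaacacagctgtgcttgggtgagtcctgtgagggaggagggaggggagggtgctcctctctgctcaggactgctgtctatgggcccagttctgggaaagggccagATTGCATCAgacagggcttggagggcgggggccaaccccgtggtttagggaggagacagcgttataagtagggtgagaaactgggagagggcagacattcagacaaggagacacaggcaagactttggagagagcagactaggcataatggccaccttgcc

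Both matches lie on the opposite strand, starting at base -31 from the start site in Gars and at -111 in Nupr1. Such a match was found in 5 of 164 promoters of genes with a higher effect at 10 weeks (3.05%), in 5 of 212 of genes with a lower effect (2.36%), and in 491 of 18109 promoters of the genes on the array (2.71%). The motif TNAAGGTCA of the estrogen-related receptors, which regulate oxidative genes, was in 1 of the 212 (0.472%) and 2 of the 164 (1.22%), against 1.08% of the genes on the array. Over all 32851 promoters of the table the shares were 3.95% and 1.28%. With 1 to 5 matches in each set of called genes, the shares are close to the background, and a match describes the letters only.

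Gars, which charges tRNA with glycine, read 8.72 and 8.62 in 4-week WT, 9.38 and 9.36 in 4-week KO, 8.34 and 8.44 in 10-week WT, and 10.10 and 10.43 in 10-week KO. KO lay above WT at each age, more so at 10 weeks, and the effect changed by 1.18 ± 0.20 (adjusted p = 0.0229). It was the 1 called of 19 tRNA synthetases, whose median was 0.52. Nupr1, a stress-induced nuclear protein, read 7.25 to 7.78 in the 6 other hearts and 9.51 and 9.44 in 10-week KO, and its effect changed by 1.76 ± 0.24. In contrast to Gars it showed no gap between the genotypes at 4 weeks beyond 0.20.

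Ppp1r15a, which recruits a phosphatase to the initiation factor eIF2, changed by 1.62 ± 0.26, and Eif4ebp1, a translation repressor, by 1.34 ± 0.20. Psat1, of serine synthesis, changed by 2.19 ± 0.38, and Mtr, methionine synthase, was called lower at -1.24 ± 0.20, though its second probe set gave 0.66. Asns, asparagine synthetase, was high in KO at both ages, at 9.27 and 9.18 in 4-week KO and 10.25 and 10.60 in 10-week KO against 6.17 to 6.72 in WT. The change of its effect was 0.96 ± 0.24 (adjusted p = 0.0902).

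Iron and heme genes were divided. Hmox1, heme oxygenase, read 9.14 and 8.34 in 10-week KO against 5.97 to 6.72 in the others, and its effect changed by 2.36 ± 0.36 (adjusted p = 0.018). Hjv, a co-receptor in hepcidin control that muscle also makes, changed by -1.39 ± 0.19. With Lcn2 these were the 3 called of 26 iron genes, where the median was 0.01, against 0.879% of all genes called higher and 1.2% lower. Uros and Urod, enzymes of the porphyrin pathway, were the 2 called of 12 heme synthesis genes, at -1.17 ± 0.16 and -1.05 ± 0.22 with a list median of -0.44, and the second probe set of Uros gave 0.01. All 8 erythroid markers had negative values (median -0.57), with 1 called, the red cell anion exchanger Slc4a1 (-0.99 ± 0.21). Their summed level was 908 and 683 in 10-week KO against 989 to 1579 in the others, and the part of red cell precursors in the heme synthesis values was not tested. None of 22 iron-sulfur cluster assembly genes was called (median -0.27), which is near the 2.08% called over all genes.

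Tfrc, the transferrin receptor, read 10.98 and 11.07 in 4-week WT, 11.45 and 11.25 in 4-week KO, 8.67 and 9.13 in 10-week WT, and 10.07 and 10.30 in 10-week KO. Both genotypes fell with age, WT by 2.13 and KO by 1.16, and the smaller fall in KO left a change of effect of 0.96 ± 0.24 that did not pass (adjusted p = 0.0871).

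In a list of 30 NRF2 targets and antioxidant enzymes 4 were called, and the list median was -0.22. Over all genes 0.879% were called higher and 1.2% lower. Hmox1 was higher, as was Nox4, which makes hydrogen peroxide and is not an antioxidant enzyme. Gstk1 and the glutathione transferase Gstp1 (-1.06 ± 0.20) were lower. Of 37 genes of muscle atrophy ubiquitin ligases and the proteasome 1 was called higher and 3 lower. Asb14 and Asb5, of the ankyrin repeat and SOCS box family, changed by -2.22 ± 0.31 and -2.14 ± 0.22 and Asb11 by -1.20 ± 0.19. Trim63, the atrophy ligase MuRF1, was called higher at 0.95 ± 0.19 with neither age change called, at 0.17 in KO and -0.78 in WT. Of 18 glycolysis genes Pfkp, a phosphofructokinase (1.51 ± 0.25), was called higher and the muscle isoforms Eno3 (-0.98 ± 0.17) and Pgam2 (-0.76 ± 0.16) lower. Of 20 TGF-beta family genes Tgfb2 (2.03 ± 0.33) and Ltbp2 were called higher. The interferon list had a median of -0.47 with 29 of 32 negative and 2 called lower, Rsad2 (-1.10 ± 0.23) and the guanylate-binding protein Gbp6 (-2.77 ± 0.56). Gbp6 read 5.89 and 6.10 in 10-week KO, 9.25 and 8.13 in 10-week WT and 6.92 to 7.93 at 4 weeks, and was not called in 6 of the 8 fits that leave out 1 array.

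The share of all genes called was 0.879% higher and 1.2% lower. Of 21 p53 targets 3 were called, the stress kinase Plk2 (1.52 ± 0.21) and the junction protein Perp (1.04 ± 0.18) higher and the cyclin Ccng1 (-0.93 ± 0.18) lower, with a median of 0.23. Of 22 immediate early genes the nuclear receptor Nr4a1 was called higher (1.34 ± 0.25) and the phosphatase Dusp1 lower (-1.32 ± 0.28), with a median of 0.11. Of 27 autophagy and lysosome genes the receptor Sqstm1 and the protease Ctsl were called higher (1.04 and 0.91), with a median of 0.10. Krt18, a keratin, was called higher among 12 mesothelial markers (1.24), whose median was -0.24. Sqstm1 read -0.09 (adjusted p = 0.956) on the probe set used when probe sets with names ending in a_at, s_at or x_at were left out. No member was called among 41 cell cycle genes (median -0.13), 17 circadian clock genes (0.09), 18 cholesterol synthesis genes (0.01) or 20 endoplasmic reticulum chaperones (0.11). With 2.08% of all genes called, no call in lists of this size is near the share over all genes. The clock genes had a median change with age of -0.41 in WT and 0.08 in KO. Among cell markers the liver list had a median of -1.58 with none of 14 called, and -0.14 without 4-week KO replicate 2. The kidney list had 1 of 11 called, the cytochrome P450 gene Cyp4b1 (-1.11), and Stard10 (-2.18 ± 0.46) was called with Sln among 12 atrial markers. Skeletal muscle markers summed to 3510 to 5221 in WT and 8207 to 12400 in KO hearts over both ages, with a median change of effect of -0.15 and 1 of 15 called lower, the fast myosin-binding protein Mybpc2 (-1.27). Their median KO minus WT difference was -0.02 at 4 weeks and -0.17 at 10 weeks, so the higher sum in KO was not shared by the list as a whole.

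**Figure D4:**
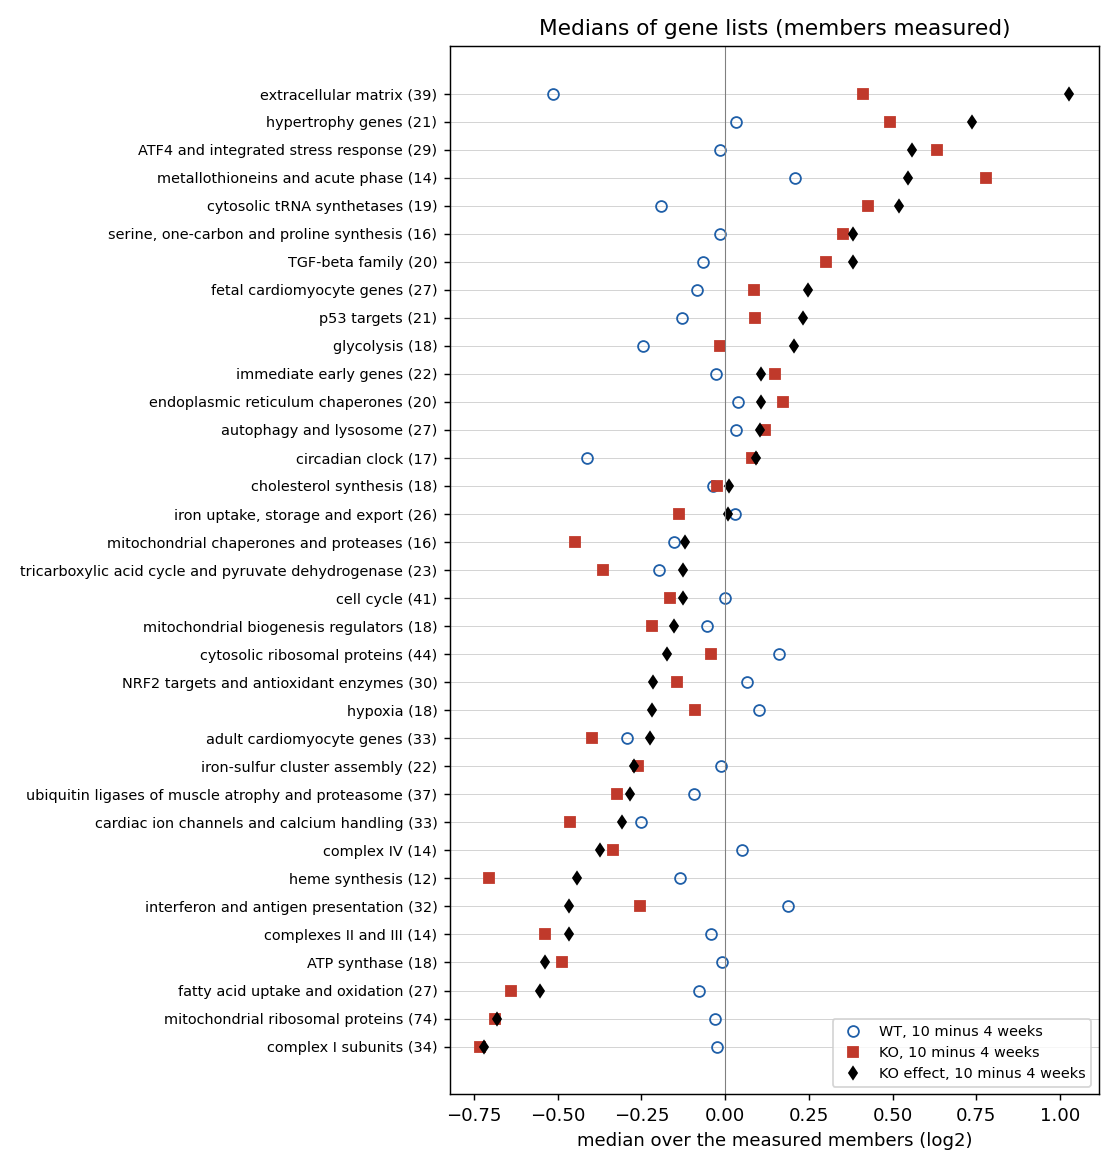
Median over the measured members (horizontal axis, log2) of the change with age in WT (open circles), in KO (squares) and of the change of the KO effect (diamonds) for the pathway and maturation lists, with the number of measured members in brackets. The diamond lies on the KO square and far from the WT circle for complex I (-0.72, -0.73 and -0.03), and for the matrix it lies above the KO square, with the WT circle on the other side of 0 (1.03, 0.41 and -0.51).

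The 21 genes called for a change with age in WT were examined from the WT side. Of these 14 were also called in KO, 12 in the same direction and Neat1 and Col5a2 in the opposite one. The KO value had the sign of the WT change in 17 of the 21, which include Col1a1, Col3a1, Eln and H2-Eb1, whose KO intervals span 0. A called change of the KO effect was found for 10 of the 21, and 2 were called neither in KO nor for the effect. Bdh1, a ketone body dehydrogenase, rose by 2.74 in WT and 1.91 in KO. Casq1, a calcium store protein, fell by 1.85 in WT and 2.37 in KO, and Kcne1, a potassium channel subunit, by 1.47 and 2.19. Mki67, of dividing cells, fell by 1.12 and 1.09, so its changes in the 2 genotypes were nearly equal, with a difference of 0.04 ± 0.20. Lgals3, a lectin of activated macrophages, rose by 1.95 in WT and 3.23 in KO.

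H2-Eb1 and Adig were the 2 with no other call. H2-Eb1, an antigen presentation gene, rose by 1.31 in WT, differed by 0.31 in KO (interval -0.09 to 0.71) and had a change of effect of -1.0 ± 0.25 (adjusted p = 0.0871). Adig, a gene of fat cells, rose by 1.42 in WT and differed by 0.71 in KO, and the summed adipocyte markers were 26876 on 10-week WT replicate 2 against 17231 to 21833 on the others.

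Seen by age, nearly all called genes differed more at 10 weeks. The calls used the same KO minus WT differences, so the counts that follow describe the called genes and have no test of their own. The KO minus WT difference was called at 10 weeks for 375 of the 379, where 5.19% of all genes were higher and 6.89% lower in KO, 12.1% together, and at 4 weeks for Cpxm2 alone, where 0.0275% were. For 328 the difference at 10 weeks was 4 or more times that at 4 weeks in size, and the median size was 0.16 at 4 weeks and 1.38 at 10 weeks. The 4 genes with the larger difference at 4 weeks were Cpxm2, Rlf, Trim63 and Cyp2s1. On both 10-week KO arrays the level lay beyond the 6 other arrays, in the direction of the call, for 362 of the called genes, and 28.3% of all genes had both these arrays beyond the others in either direction. The change of effect was called for 17.1% of the 2199 genes called at 10 weeks. For 1824 of them it was not called, so a change of the KO effect between the ages was not shown for those. A called change does not show an onset after 4 weeks either. Of the 375, 248 had the same sign of the KO minus WT difference at 4 weeks and 127 the opposite one.

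Leaving out single arrays moved the counts more than any other setting. The number of called genes was 40 to 116 without 1 of the 4-week arrays, 106 and 206 without 10-week KO replicate 1 and 2, 448 without 10-week WT replicate 1 and 1600 without 10-week WT replicate 2. The WT-led count rested on the 10-week WT arrays most: it was 9 without replicate 1 and 501 without replicate 2, when the array with liver and kidney markers stood alone for its group. The number of genes called for a change with age in WT was 27 and 2946 in these 2 fits. KO-led genes were the largest class in all 8, from 38 of 40 to 566 of 1600.

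Of the 379 genes 36 were called without any single array, 21 with a higher and 15 with a lower effect. These included Serpina3n, Postn, Nox4, Lox, Neat1, Fam122b, Myh7, Lcn2, Ccn2, Cilp and Ltbp2 among those higher, and Rpl3l, Lrtm1, Gstk1, Ces1d, Cmss1, Yipf7, Cox7a1 and Asb5 among those lower. Plin5, which coats lipid droplets, was another of them at -1.87 ± 0.18, with a second probe set at -1.34, and so was Hopx, a cofactor of heart transcription, at -1.90 ± 0.19, with a second probe set at -2.45. Of the 36 none was WT-led.

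**Figure D5:**
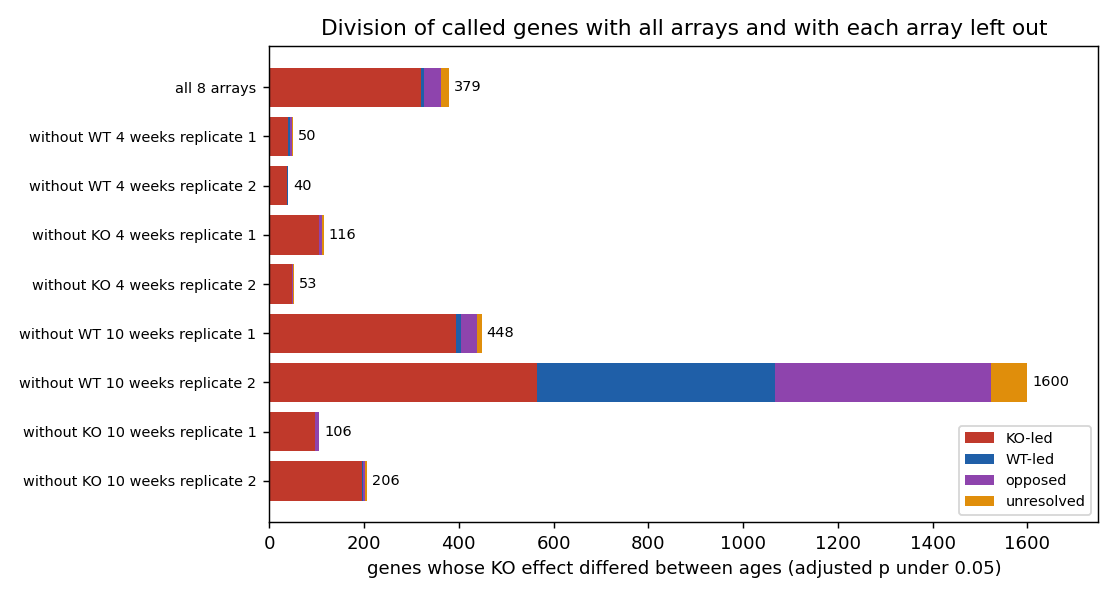
Number of genes whose KO effect differed between ages (horizontal axis, limma adjusted p under 0.05) with all 8 arrays and with each array left out (rows), divided into KO-led, WT-led, opposed and not resolved. The bar is 379 with all arrays, 40 without 4-week WT replicate 2 and 1600 without 10-week WT replicate 2, where the WT-led share grows to 501.

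Further probe sets of the same genes, measured on the same arrays, mostly had the same sign. Of the 379 genes 193 had another probe set, in 154 of these every other probe set had the sign of the one used, and in 13 none had. Over the single probe sets this was 295 of 345, 85.5%, against 62.4% over all genes.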

How the data were processed

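RNA from 8 hearts was measured on short-oligonucleotide mouse genome arrays of Affymetrix. The authors deposited 1 linear intensity per probe set and array, for which the submitters' processing notes name RMA and GCOS 1.3, and the RMA version and order of steps are not given in the sources used here. Array medians lay between 34.3 and 37.4, so the arrays share a scale. RMA can compress large differences at low intensity.

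Of 45101 probe sets, 64 controls were left out, 34945 named 1 gene, 932 several and 9160 none in the platform annotation, and 34741 were matched to RefSeq by Entrez ID. For each of 18193 genes its probe set of highest mean level was taken, without a filter on dim genes. Log2 values were fitted in limma 3.58.1 (R 4.3.3) with 4 group means on all 8 arrays, contrasts between them, empirical Bayes moderation and Benjamini-Hochberg adjustment over all genes, with 95% intervals. The scripts were tested on simulated data. The mice are separate animals, so p-values measure the spread between 2 mice per group.

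The genes, lists and tests were chosen with earlier results of these data known. Genes were named by these rules, clone-like symbols left out: the 10 highest and 10 lowest called values, up to 8 called genes per direction of each division, up to 4 called members per pathway list (or 2 of smallest p where none was called), and the 5 largest rises and falls with age in WT. Genes of the marker lists, Nppa, Asns, Ccn5, Plin5 and Hopx, and the genes singled out for their direction by age, were picked with their values in view. Alternatives comprised other choices of probe set, filters on dim genes, normalization, variance moderation, array weights, the replicate number as a block, a division by size only, and each array left out in turn. A single gene is not reported here.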

Additional observations from a re-analysis of the deposited data

Results flagged for a closer look

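A difference of the KO effect between the ages was itself the test, so each called result is listed here. The effect was higher at 10 weeks for 160 genes and lower for 219, and the division gave 321 KO-led, 6 WT-led and 36 opposed genes. The highest changes were those of Serpina3n (3.93), Postn (3.07), Col8a1 (3.05), Nox4 (3.0), Timp1 (2.94), Lox (2.82), Neat1 (2.81), Fam122b (2.81), Myh7 (2.67) and Lcn2 (2.66). The lowest were those of Sln (-4.15), Ift81 (-3.34), Rpl3l (-3.07), Lrtm1 (-2.83), Gpr22 (-2.81), Gbp6 (-2.77), Gstk1 (-2.76), Ces1d (-2.73), Cmss1 (-2.57) and Yipf7 (-2.49). Outside the named genes, 30 of the 9160 probe sets without a gene in the annotation were called for a change of the KO effect when tested with limma. Groups of 2 hearts are too small for a test of single arrays as outliers.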

How the results depend on the processing

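Leaving out 1 array in turn gave 40 to 1600 genes with a changed KO effect, 527 to 3035 genes that change with age in KO, 4 to 2946 genes that change with age in WT, 3 to 12 genes that differ at 4 weeks and 1154 to 3244 genes that differ at 10 weeks, with 38 to 566 KO-led, 0 to 501 WT-led and 1 to 457 opposed. Apart from these, the number of called genes ran from 305 with probe sets ending in a_at, s_at or x_at left out (292 of the 379 among them) to 549. With probe sets averaged per gene 3 genes were WT-led. With all probe sets tested singly the counts were 3262 with age in KO, 44 in WT, 10 at 4 weeks, 3637 at 10 weeks and 10 WT-led. With trend and robust settings 45 genes changed with age in WT. With array weights 14 differed at 4 weeks and 56 were opposed. Dividing by size only gave 15 WT-led genes. Sqstm1 was not called with the probe sets ending in a_at, s_at or x_at left out, at -0.09 (-0.0864, adjusted p = 0.956) on another probe set. The difference between replicates 2 and 1 correlated positively between all pairs of groups (r 0.04 to 0.30). With 2 arrays per group this does not settle whether same-numbered arrays belong together. The replicate block gave 549 called genes (375 of the 379 among them), 107 with age in WT, 18 WT-led and 68 opposed. The block gave 253 genes with a higher and 296 with a lower effect. With quantile normalization again these counts were 236 and 240, and with trend and robust settings 182 and 197. In some fits without 1 array more genes were higher than lower, so the excess of lower effects depended on the setting. With 2 arrays per group, changes smaller than the 0.76 of the least called gene were not called.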
